A study of Mus musculus with 28 samples.

Results

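The genes described here are 9 transcription factors that define and maintain hepatocytes, the main functional cells of the liver: Hnf4a, Cebpa, Cebpb, Foxa1, Foxa2, Foxa3, Nr5a2, Prox1 and Onecut2. They were taken by symbol from the tables of read counts, where they make up 9 of 32544 genes, and all 9 passed the filter on low counts in both sexes. The RNA was that of the whole liver, with 1 library for each of 28 C57BL/6 mice aged 13 weeks by the labels. Every mouse received tamoxifen at 5 weeks of age and went onto its diet 2 weeks later, for 5 weeks. These steps add up to 1 week less than the age on the labels. CT mice were floxed controls, and KO mice had lost c-Myc in endothelial cells after tamoxifen switched on Cre. Which promoter drives Cre, and whether the CT mice carry it, is not given in the sources used here. Each genotype received either CTD, a control diet low in fat, or HFC, a diet rich in fat and cholesterol. Sex, genotype and diet gave 8 groups, each with 4 males or 3 females, and every animal has its own number.

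These factors work as a network. HNF4A, a nuclear receptor, keeps hepatocytes differentiated and drives genes of lipoprotein, bile acid and glucose metabolism. The FOXA proteins are pioneer factors that open liver chromatin for other factors, and C/EBP alpha and beta are leucine zipper proteins that share binding sites, with C/EBP alpha tied to metabolic genes and C/EBP beta to acute phase and stress responses. NR5A2 (LRH-1) governs bile acid and cholesterol genes, PROX1 restrains some nuclear receptors and bile acid synthesis, and ONECUT2 acts beside ONECUT1 in liver and bile duct development.

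Across diets the data show lower levels of Foxa3, Cebpb and Nr5a2 in KO males on HFC than on CTD, and lower levels of Prox1, Cebpb and Onecut2 in KO females on HFC. All 3 calls in KO females were lost when any 1 of 5 KO females (animals 307, 309, 317, 412 and 419) was left out, and the Cebpb and Nr5a2 calls in KO males each when any 1 of 3 KO males was. No factor passed the test between KO and CT livers on either diet in either sex. Hnf4a, the factor with the highest level per length of transcript by the mean over each sex, did not pass the test in any comparison. The size of the diet differences depends on how libraries are scaled, and only Foxa3 in KO males passed under both scalings described below.

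Male libraries held 22154774 to 22652285 counts and female libraries 18741939 to 19195502. TMM factors, which correct a library total for genes that take an unequal share of reads, were 0.862 to 0.999 in CTD males and 1.02 to 1.19 in HFC males, and 0.842 to 0.939 in CTD females and 1.0001 to 1.17 in HFC females, so that the 2 diets do not overlap. Animal numbers run from 298 to 320 on CTD and from 412 to 543 on HFC. The labels name no cohorts, and if these ranges mark them, their difference cannot be told apart from the diet. Hepatocyte genes such as Alb (44623 to 145633 TMM-normalised CPM over all CTD libraries) were abundant in every library, and 5 of 8 exocrine pancreas markers in males and 3 of 8 in females were at 0 in every library. Whole-liver Myc was 6.42 ± 1.32 CPM in CT and 11.2 ± 7.67 in KO males on CTD (SD, n = 4), 8.38 ± 4.16 and 11.4 ± 6.16 on HFC, and likewise not lower in KO females, at 11.9 ± 7.51 against 7.33 ± 4.04 on CTD and 10.02 ± 4.70 against 6.51 ± 2.81 on HFC (SD, n = 3). Whole liver holds Myc RNA of all its cells, so these values do not check the deletion in endothelial cells. In bulk RNA, fewer cells of a type and less RNA per cell cannot be told apart.

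Promoters of 4 called factors are shown because these genes carry diet differences described below, with 1 of Hnf4a for comparison. The promoter of Onecut2, also called, was not examined. Hnf4a, Nr5a2 and Prox1 have 2 RefSeq entries each and Foxa2 has 3. The entry whose start is nearest the 5′ end of the GENCODE gene was taken. Which start the liver uses was not examined, so a run shown here need not be the promoter behind the measured level. Each run is the 120 bases before the RefSeq start of transcription on GRCm38.p6, 5′ to 3′ on the strand of the gene, and capitals mark matches to the motifs named after them, on either strand.
Foxa3 (chr7:19023540-19023659, minus strand): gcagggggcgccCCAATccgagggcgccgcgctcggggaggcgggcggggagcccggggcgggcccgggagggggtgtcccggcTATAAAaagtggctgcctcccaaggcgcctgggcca
Cebpb (chr2:167688795-167688914, plus strand): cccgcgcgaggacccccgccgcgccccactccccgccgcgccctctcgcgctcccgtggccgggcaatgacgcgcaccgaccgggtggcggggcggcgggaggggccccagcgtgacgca
Nr5a2 (chr1:136960449-136960568, minus strand): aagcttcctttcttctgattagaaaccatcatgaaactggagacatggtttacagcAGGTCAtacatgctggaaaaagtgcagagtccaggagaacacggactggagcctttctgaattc
Prox1 (chr1:190170828-190170947, minus strand): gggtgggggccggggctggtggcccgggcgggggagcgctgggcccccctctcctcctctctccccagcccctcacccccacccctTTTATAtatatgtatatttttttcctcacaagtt
Hnf4a (chr2:163506737-163506856, plus strand): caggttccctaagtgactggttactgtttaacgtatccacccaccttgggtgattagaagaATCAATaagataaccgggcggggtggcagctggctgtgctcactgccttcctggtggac

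Motifs were searched in the 300 bases from 250 before to 50 after the start. The TATA box letters TATAAA lie 36 bases before the start of Foxa3, 34 before that of Prox1 (printed there as the reverse complement) and 30 before that of Cebpa. They also occur at -181 in Nr5a2 and at 22 after the start of Cebpb, so 5 of 8 promoters hold them, and 13.6% of 32851 mouse promoters of that length hold them. CCAAT lies at -108 in Foxa3 and also in Hnf4a, Foxa1, Foxa2 and Prox1, 5 of 8, and in 37.4% of promoters. The nuclear receptor half-site AGGTCA lies at -64 in Nr5a2 and in 16.3% of promoters, and the ONECUT motif ATCAAT lies at -59 in Hnf4a, at -213 in Foxa2 and in 7.54%. None of the 8 promoters examined holds the E-box CACGTG, the site bound by Myc with its partners, which 7.15% of promoters hold. None holds the C/EBP palindrome TTGCGCAA, which 0.183% hold. A match is a description of letters, and its absence in this window says nothing of the factor.

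The factors span more than an order of magnitude in level. On GRCm38 per GENCODE M21, Hnf4a is on chromosome 2 (163506808 to 163572910, plus strand), Foxa3 on chromosome 7 (19013284 to 19023538, minus), Cebpb on chromosome 2 (167688915 to 167690418, plus), Nr5a2 on chromosome 1 (136842571 to 136960448, minus), Prox1 on chromosome 1 (190118035 to 190170714, minus) and Onecut2 on chromosome 18 (64340020 to 64400987, plus). Levels per kb of exon were highest for Hnf4a, at 137 ± 19.2 TMM-normalised CPM per kb over all males (SD, n = 16) and 115 ± 13.0 over all females (SD, n = 12). Cebpa followed at 115 ± 22.8 in males and 108 ± 20.9 in females, and Cebpb at 82.0 ± 22.7 and 103 ± 27.2.

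Below these 3 came a gap. Prox1 reached 22.4 ± 6.66 per kb in males and 14.7 ± 3.71 in females, and no library of either sex had a Prox1 level inside the range of Cebpb. Foxa3 (14.9 in males, 10.99 in females), Nr5a2 (12.5 and 8.47), Foxa2 (8.88 and 10.5), Foxa1 (7.50 and 3.94) and Onecut2 (7.21 and 5.91) completed the order of the males. In females the order below Prox1 was Foxa3, Foxa2, Nr5a2, Onecut2 and Foxa1. In each sex's own order, the ranges of all neighbours apart from Cebpb and Prox1 overlapped. Hnf4a was above 97.9% of tested genes per kb in males and Onecut2 above 72.3%.

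**Figure D1:**
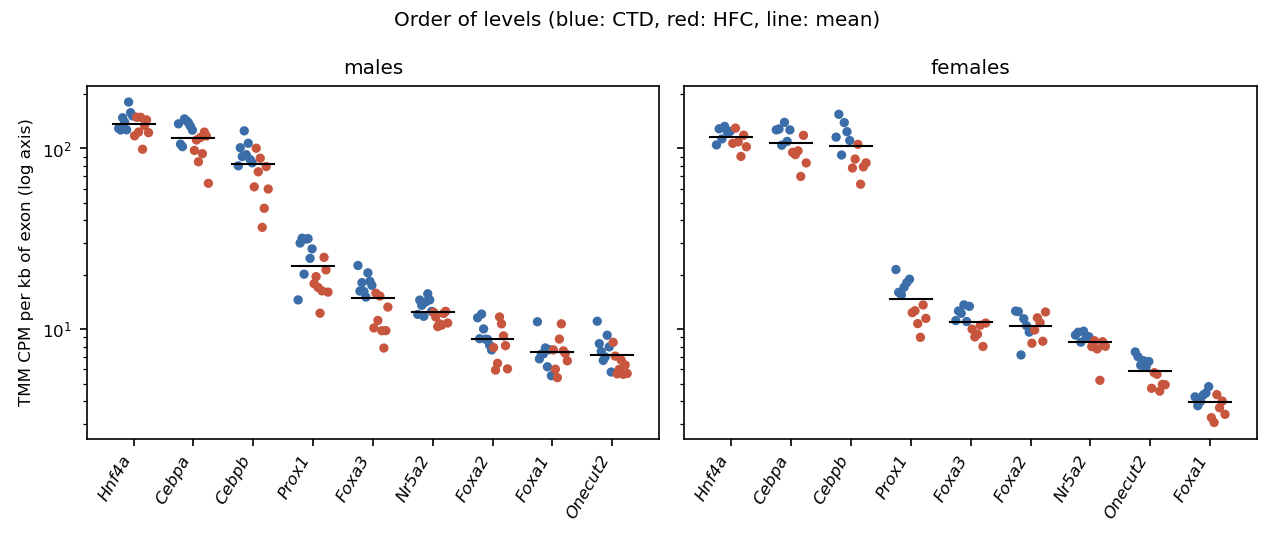
Level of each factor in TMM-normalised CPM per kb of exon (log axis) in every male (left) and female (right) library, blue for CTD and red for HFC, with a line at the mean. Hnf4a, Cebpa and Cebpb stand above the other 6, and the lowest mean is Onecut2 in males and Foxa1 in females.

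Spread within groups differed among the factors. Nr5a2 was the steadiest in males, with a mean within-group coefficient of variation of 8.998%, where the median of all tested genes was 12.3%. Prox1 (21.5%), Foxa1 (21.3%) and Cebpb (21.2%) varied most. In females Onecut2 had the smallest value, 7.05% beside a median of 15.0%.

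**Figure D2:**
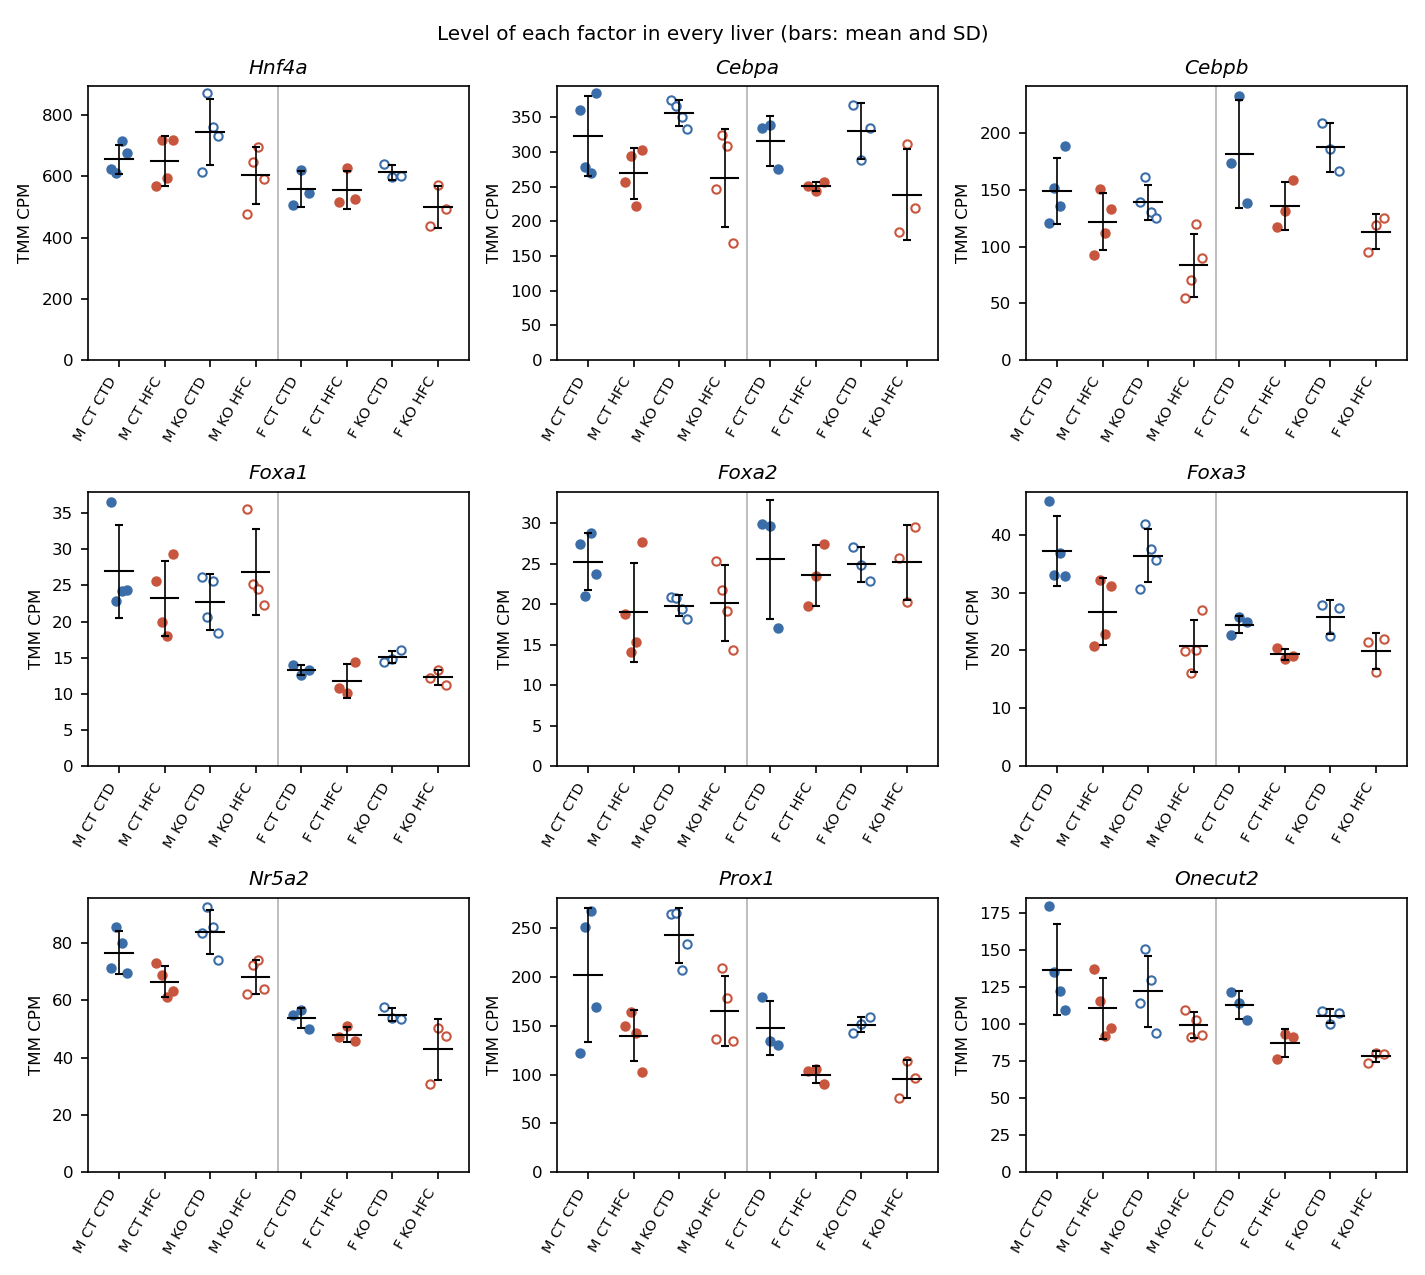
TMM-normalised CPM of each factor in every liver (points; filled CT, open KO; blue CTD, red HFC), with the mean and SD of each group as bars; M and F are males and females, which come from separately normalised tables. Foxa3 in KO males reads 30.7 to 41.8 CPM on CTD and 16.03 to 27.0 on HFC.

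The first comparison asks what HFC feeding did to these factors. Among KO males, 3 of 9 factors passed edgeR's quasi-likelihood test at an adjusted p under 0.05, all lower on HFC, while 29.1% of 14078 tested genes passed in either direction and 13.6% were lower. Among CT males 0 of 9 passed, beside 20.0% of all genes in either direction and 9.40% lower, with 3 factors at an unadjusted p under 0.05 beside 33.6% of genes. KO females had 3 of 9 lower, beside 8.59% of 13999 genes in either direction and 4.65% lower, and CT females 0 of 9 beside 2.19% in either direction and 1.26% lower, with 4 factors at an unadjusted p under 0.05 beside 20.3% of genes. The median log2 fold change of the 9 was -0.29 in CT males, -0.31 in KO males, -0.34 in CT females and -0.37 in KO females, where the medians of all tested genes were -0.01, -0.02, 0.00 and 0.02.

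**Figure D3:**
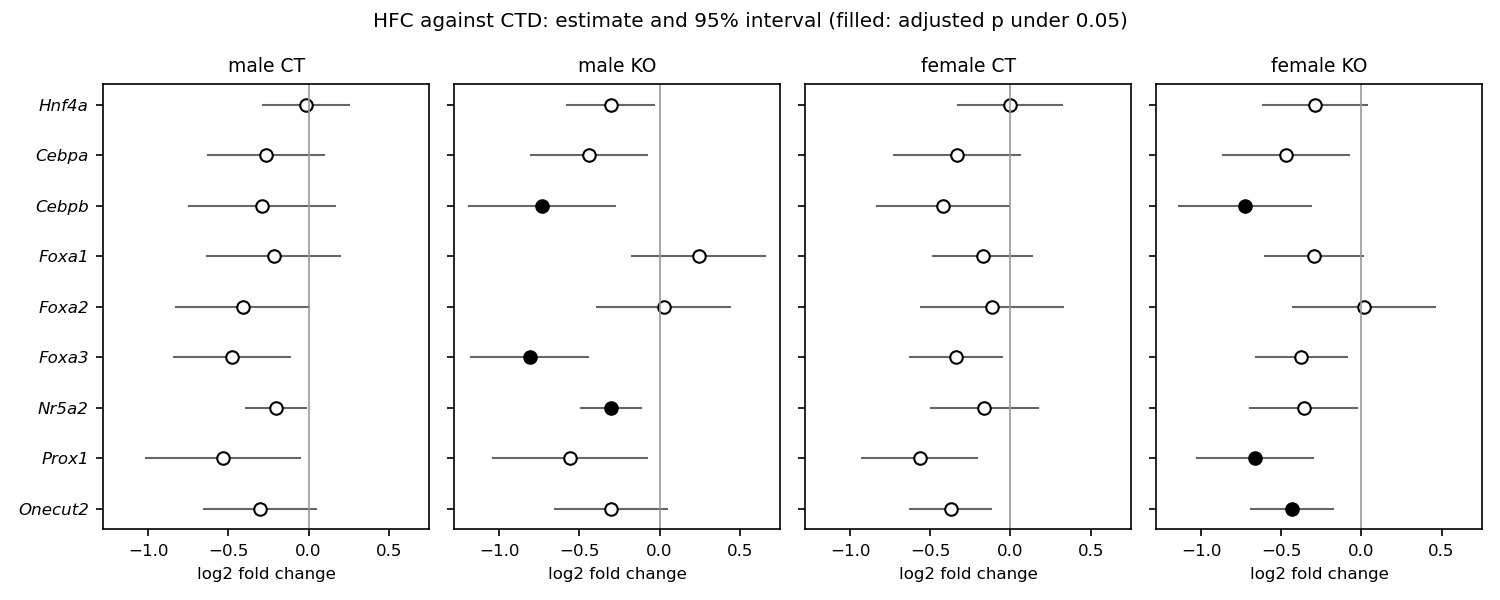
Log2 fold change of each factor, HFC against CTD, in the 4 sex and genotype settings, with its 95% confidence interval. Filled points passed at an adjusted p under 0.05 in edgeR's quasi-likelihood test, 3 in KO males and 3 in KO females.

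Foxa3, the FOXA family member that supports glucose and lipid genes of the mature liver, had the largest difference in KO males. Its level was 30.7, 41.8, 37.5 and 35.6 CPM in the 4 KO males on CTD and 19.98, 16.03, 20.01 and 27.0 on HFC. Every HFC animal lay below every CTD animal. Foxa3 fell by 0.81 on the log2 scale (SE 0.17, 95% interval -1.17 to -0.45, adjusted p = 0.00233, edgeR quasi-likelihood), to 0.570 of the CTD level. In CT males it was 45.9, 33.1, 36.9 and 32.9 CPM on CTD and 20.7, 32.2, 22.8 and 31.1 on HFC. These groups did not overlap either, by a margin of less than 1 CPM, and the difference of -0.48 (SE 0.17) missed the threshold at an adjusted p of 0.0589 in edgeR. DESeq2 put it at an adjusted p of 0.0335, and without CT animal 301 it was -0.36 with an adjusted p of 0.178 in edgeR. In females Foxa3 was 22.7, 25.7 and 24.95 CPM on CTD and 20.4, 18.5 and 19.1 on HFC in CT, and 27.8, 22.5 and 27.3 against 21.4, 16.4 and 22.0 in KO. No HFC female lay inside the CTD range of its genotype. The differences of -0.34 (adjusted p = 0.178) and -0.37 (adjusted p = 0.0967) did not pass in edgeR.

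Neither of the other FOXA genes passed in any setting. Foxa1 in KO males was 18.4 to 26.2 CPM on CTD and 22.2 to 35.6 on HFC, a difference of 0.24 (95% interval -0.17 to 0.66) that did not pass. Foxa2 differed by 0.03 there (-0.39 to 0.44) and by 0.02 in KO females (-0.43 to 0.46). In CT males both had values below 0, -0.22 for Foxa1 and -0.41 for Foxa2, the second close to the -0.48 of Foxa3. In KO females Foxa1 was 14.4, 14.8 and 16.01 CPM on CTD and 12.2, 13.3 and 11.3 on HFC, without overlap, and differed by -0.30 (adjusted p = 0.213). In CT females Foxa1 differed by -0.17 and Foxa2 by -0.12. Whether Foxa3 differed from its relatives was not tested.

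Cebpb, which encodes C/EBP beta, was lower in KO animals of both sexes. KO males had 139, 161, 130 and 125 CPM on CTD and 55.1, 70.2, 119 and 89.8 on HFC. The highest HFC animal, 119, was just under the lowest CTD animal, 125. Cebpb fell by 0.73 in KO males (SE 0.21, adjusted p = 0.0184, edgeR quasi-likelihood). KO females had 209, 186 and 166 CPM on CTD and 95.4, 119 and 125 on HFC, again without overlap. There it fell by 0.73 as well (SE 0.19, adjusted p = 0.0341, edgeR). CT animals overlapped between diets in both sexes, with differences of -0.29 in males and -0.42 in females that did not pass. Its opposite-strand neighbour Tmem189, with 295 to 820 counts per library, overlaps Cebpb over 908 bases, and since the counting's use of strand is not given, reads of that stretch cannot be told apart.

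Cebpa, which encodes C/EBP alpha, had values below 0 in all 4 settings without passing in edgeR. KO males had 375, 366, 350 and 333 CPM on CTD and 247, 325, 309 and 169 on HFC, with no overlap and a difference of -0.44 (SE 0.17, adjusted p = 0.0622). CT females had 334, 338 and 275 CPM on CTD and 251, 244 and 256 on HFC, also without overlap, and the difference was -0.34 (adjusted p = 0.320). CT males (-0.27) and KO females (-0.47) overlapped between diets.

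Nr5a2, the bile acid and cholesterol regulator, showed a small difference with a small error. KO males had 83.5, 92.6, 85.7 and 74.0 CPM on CTD and 62.2, 72.2, 74.1 and 63.8 on HFC. The groups met at 74 CPM and overlapped by 1 animal. Nr5a2 fell by 0.30 there (SE 0.09, adjusted p = 0.0172, edgeR quasi-likelihood). The call was lost without KO animal 303, 414 or 540, and with library totals Nr5a2 differed by -0.03 (adjusted p = 0.769). CT males gave -0.20 (SE 0.09, adjusted p = 0.123). In KO females the values were 57.5, 53.9 and 53.6 CPM on CTD and 30.8, 50.3 and 47.5 on HFC, where animal 412 was far below the rest, and the difference of -0.36 did not pass (adjusted p = 0.162).

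Prox1, known in lymphatic endothelium as well as hepatocytes, was lower on HFC in KO females. KO females had 143, 152 and 159 CPM on CTD and 75.7, 114 and 96.3 on HFC. CT females had 179, 134 and 130 on CTD and 104, 106 and 90.1 on HFC. Neither genotype overlapped between diets. Prox1 fell by 0.66 in KO females (SE 0.17, adjusted p = 0.0272, edgeR quasi-likelihood), and the CT difference of -0.56 (SE 0.17) had an adjusted p of 0.0932. In males the differences were of like size, -0.53 in CT and -0.56 in KO, with adjusted p-values of 0.111 and 0.0770 and wider errors (SE 0.23 and 0.22). CT males on CTD ranged from 122 CPM in animal 301 to 268 in animal 313. Without animal 301 the CT difference of Prox1 was -0.71 with an adjusted p of 0.0219 in edgeR. Pdpn, Flt4, Lyve1, Ccl21a and Mmrn1 were taken as lymphatic endothelial markers, and whether other liver cells add to them was not examined. The summed level of these 5 in KO females was 26.1 to 36.2 CPM on CTD and 36.6 to 47.4 on HFC. In CT females it was 25.3 to 39.3 and 36.7 to 42.8. It was 39.9 to 57.1 and 40.3 to 64.6 in CT males, and 35.2 to 39.6 and 38.4 to 54.6 in KO males. The part of lymphatic cells in the Prox1 values was not tested.

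Onecut2, a cut-homeodomain factor, was the other called gene in females. KO females had 109, 100 and 108 CPM on CTD and 73.8, 80.4 and 80.0 on HFC, and CT females 122, 114 and 103 against 76.5, 93.3 and 91.4. Every HFC female was below every CTD female of its genotype. Onecut2 fell by 0.43 in KO females (SE 0.12, adjusted p = 0.0386, edgeR quasi-likelihood), and the CT difference of -0.37 had an adjusted p of 0.113. In males the differences were -0.31 and -0.30, with overlapping groups.

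Hnf4a stayed near its CTD level in CT animals. CT males had 624, 611, 714 and 675 CPM on CTD and 567, 719, 595 and 718 on HFC, a difference of -0.01 (95% interval -0.28 to 0.26). CT females had 505, 621 and 545 CPM on CTD and 515, 626 and 525 on HFC, a difference of -0.00 (-0.33 to 0.32). The groups overlapped throughout. KO males had 613, 873, 762 and 731 CPM on CTD and 478, 647, 695 and 591 on HFC, and the difference of -0.31 did not pass in edgeR (adjusted p = 0.0823). In KO females the groups were apart, 640, 597 and 600 against 436, 572 and 493.4, with a difference of -0.29 (adjusted p = 0.243).

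In counts of groups that did not overlap, 1 of 9 factors was lower on HFC in CT males, beside 21.6% of all tested genes apart in either direction and 10.2% lower. KO males had 3 of 9 lower, beside 30.0% and 14.7%. CT females had 4 of 9 lower, beside 28.3% and 14.1%, and KO females 7 of 9, beside 26.4% and 14.1%. The 7 in KO females were Hnf4a, Foxa1, Foxa3, Cebpb, Nr5a2, Prox1 and Onecut2.

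These values rest on TMM scaling. With plain library totals, the median log2 fold change of all tested genes rose to 0.22 in CT males, 0.26 in KO males, 0.30 in CT females and 0.32 in KO females, and the median of the 9 factors to -0.08, -0.03, -0.04 and -0.07. Of all called genes, 53.1% and 53.2% were higher on HFC in CT and KO males under TMM and 91.0% and 91.6% under library totals. In females these shares were 42.7% and 45.8% under TMM and 92.1% and 89.8% under library totals. Relative to the median gene the factors were about as far down under both scalings. A change of scaling moves all genes of a library alike, so this was bound to hold.

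Foxa3 in KO males was the only factor to pass under library totals, at -0.53 with an adjusted p of 0.0155 (edgeR), where 43.3% of all genes passed and 3.63% were lower. Cebpb under library totals was -0.47 in KO males and -0.43 in KO females, with an adjusted p of 0.0799 in each. Nr5a2 was 0.03 in CT males and 0.13 in CT females under library totals, neither past the threshold. Hnf4a turned positive there in 3 settings, with 0.21 in CT males, 0.29 in CT females and 0.01 in KO females, none of them past the threshold. Cebpa, Cebpb, Foxa3, Prox1 and Onecut2 were below 0 in all 4 settings under both scalings.

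**Figure D4:**
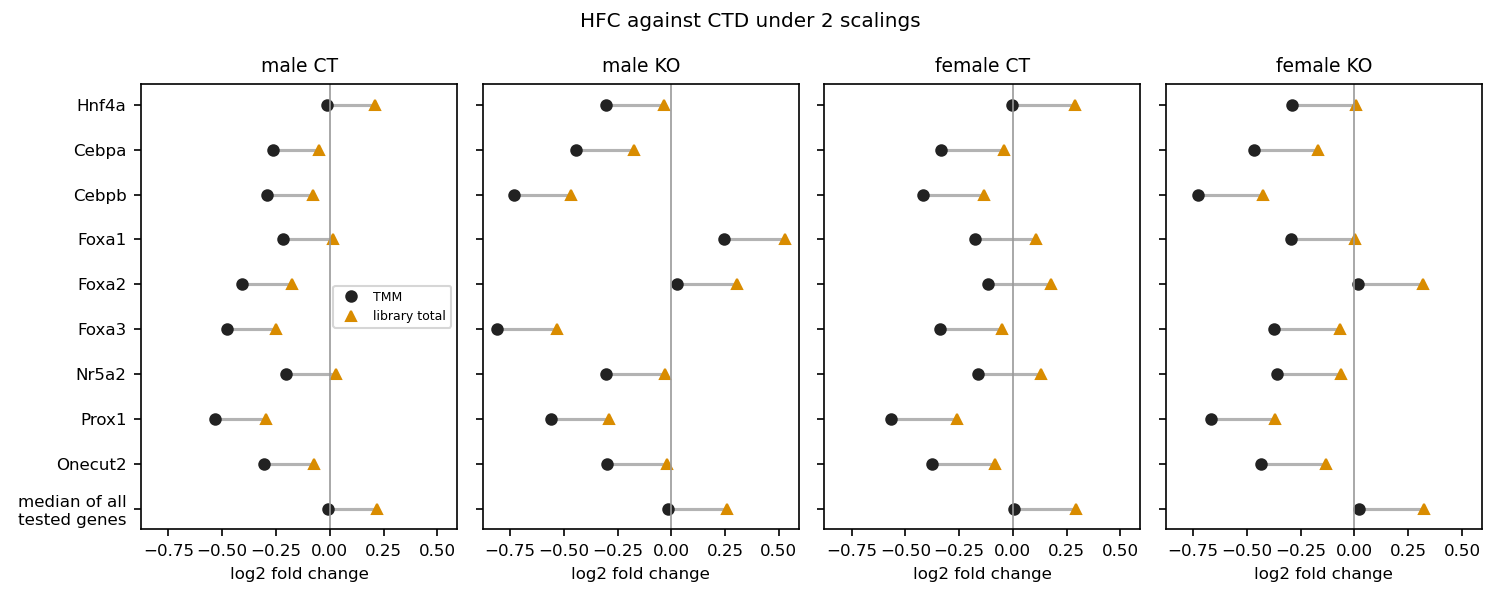
Log2 fold change of each factor and the median of all tested genes, HFC against CTD, with TMM factors (circles) and with library totals (triangles). Library totals shift every value to the right, and the median gene then lies at 0.22 to 0.32.

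A ratio of 2 genes within a library needs no scaling. Foxa3 counts were 7.36, 5.42, 5.16 and 4.88% of Hnf4a counts in CT males on CTD and 3.65, 4.48, 3.83 and 4.33% on HFC. In KO males they were 5.01, 4.79, 4.93 and 4.87% on CTD and 4.18, 2.48, 2.88 and 4.57% on HFC. Every HFC male was below every CTD male of its genotype. The ratio was 0.721 of its CTD value in CT and 0.698 in KO males, with an exact two-sided permutation p of 0.0286 each, the smallest that 4 against 4 can give, and 0.229 after Benjamini-Hochberg adjustment over the 16 ratios computed in males. In females 3 against 3 cannot go below 0.1. The Prox1 ratio there was 0.684 of its CTD value in CT and 0.766 in KO, with no overlap in either. Each had an exact permutation p of 0.1, and 0.267 after the same adjustment over the female ratios. Cebpa in CT (0.798), Cebpb in KO (0.742) and Onecut2 in CT (0.773) did not overlap either, and each overlapped in the other genotype. The Foxa3 ratio in females was 0.792 in CT, without overlap, and 0.945 in KO, with overlap (exact permutation p = 0.9). The Prox1 ratio in males was 0.724 in CT and 0.831 in KO, with overlap in both. Nr5a2 kept its ratio to Hnf4a in KO males, at 1.004 times the CTD value (exact permutation p = 0.914). Such a ratio shows that 2 genes changed unequally, not which of them changed.

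Most factors had values of the same sign in both genotypes, and the diet difference averaged over CT and KO was also tested, a choice made after the values were seen. In males 6 of 9 factors were then lower on HFC, where 40.8% of genes passed and 20.4% were lower: Foxa3 (-0.64, adjusted p = 0.00054), Prox1 (-0.55, 0.0129), Cebpb (-0.51, 0.0136), Cebpa (-0.35, 0.0269), Onecut2 (-0.30, 0.0478) and Nr5a2 (-0.25, 0.0041), all by edgeR's quasi-likelihood test. In females 5 of 9 were lower, beside 19.3% of genes called and 8.98% lower. These were Prox1 (-0.61, adjusted p = 0.00364), Cebpb (-0.57, 0.0115), Onecut2 (-0.40, 0.00573), Cebpa (-0.40, 0.0441) and Foxa3 (-0.36, 0.0185). Hnf4a, Foxa1 and Foxa2 did not pass in either sex. TMM factors were used for these tests, with the scaling limit given above.

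The second comparison asks whether loss of endothelial c-Myc altered the factors. KO livers were compared with CT livers on each diet, and 0 of 9 factors passed in any of the 4 tests, as did 0% of all genes by edgeR's quasi-likelihood test (949 male genes on CTD and 653 on HFC, and 446 female genes on CTD and 311 on HFC, had an unadjusted p under 0.05). DESeq2 called 11 and 3 genes in males and 1 gene on CTD in females, none of them a factor described here. The widest gap was Cebpb in males on HFC, 92.3, 151, 112 and 133 CPM in CT against 55.1, 70.2, 119 and 89.8 in KO, with 1 KO animal inside the CT range. Its difference was -0.54 (SE 0.21, 95% interval -0.999 to -0.09, unadjusted p = 0.0222, adjusted p = 0.958, edgeR). Foxa3 differed by -0.36 in the same comparison (-0.73 to 0.00). Hnf4a differed by 0.18 in males on CTD (-0.09 to 0.45) and by -0.11 on HFC (-0.38 to 0.16).

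Groups that did not overlap between genotypes were Foxa2 in males on CTD, 27.4, 21.0, 28.8 and 23.8 CPM in CT against 20.9, 20.8, 19.4 and 18.2 in KO, and Foxa1 in females on CTD, 14.1, 12.6 and 13.3 in CT against 14.4, 14.8 and 16.01 in KO. Foxa2 was lower and Foxa1 higher in KO, with log2 fold changes of -0.35 and 0.18, and neither passed. All tested genes were apart at 3.99% in males and 9.18% in females on CTD, and at 2.17% and 5.46% on HFC, where 0 factors were apart.

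The third comparison asks whether the diet difference itself depended on genotype or sex. For genotype, 0 of 9 factors and 0% of all genes passed the interaction in either sex (edgeR, 852 male and 546 female genes at an unadjusted p under 0.05; DESeq2 called 8 genes in males). So although 3 factors passed in KO and 0 in CT animals of each sex, the difference between genotypes was not shown. The interaction was -0.33 for Foxa3 in males (95% interval -0.84 to 0.18), -0.44 for Cebpb in males (-1.08 to 0.20) and -0.31 for Cebpb in females (-0.89 to 0.28). For sex, the female minus male diet difference passed for 0 of 9 factors, beside 0.810% of 14685 genes. It was 0.25 for Foxa3 (-0.08 to 0.59) and -0.10 for Prox1 (-0.54 to 0.34).

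Other genes of the hepatocyte network were taken from lists chosen with earlier results of these data known, so their directions are no independent evidence. Beside every list, 10.6% of all tested genes were called higher and 9.40% lower in CT males, and 15.5% and 13.6% in KO males. In females these shares were 0.936% and 1.26% in CT, and 3.94% and 4.65% in KO. Of 39 other hepatocyte transcription factors, 1 rose and 10 fell in KO males on HFC, 2 rose and 2 fell in CT males, 1 rose and 5 fell in KO females and 0 passed in CT females (edgeR). Their medians, -0.24, -0.10, -0.15 and -0.09, were nearer those of all genes than the medians of the 9. Nr0b2, the bile acid-induced repressor SHP, rose by 1.35 in CT males (adjusted p = 0.00109), 0.68 in KO males (0.0319) and 1.14 in KO females (0.0415). Nr1h4, the bile acid receptor FXR, fell in these 3 settings, with log2 fold changes of -0.43, -0.69 and -0.54 (adjusted p = 0.0102, 0.000174 and 0.0196), and Hlf, a clock-output factor, fell likewise, with -0.63, -0.78 and -0.83 (adjusted p = 0.00269, 0.000301 and 0.0158). Onecut1, the partner of Onecut2, fell by 1.83 in KO females (adjusted p = 0.0157), from 17.5 to 34.0 CPM on CTD to 5.07 to 12.01 on HFC. Under library totals the counts for the 39 were 3 higher and 2 lower in KO males, 7 and 1 in CT males, 5 and 4 in KO females, and 4 and 0 in CT females. With that scaling 32.2% of all genes were called in either direction and 2.91% were lower in CT males, and 43.3% and 3.63% in KO males. In CT females it was 13.1% and 1.04%, and in KO females 26.7% and 2.71%.

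Of 18 genes known to depend on HNF4A, 7 fell and 1 rose in CT males, 9 fell in KO males, 4 fell in CT females and 6 fell in KO females, with medians of -0.44, -0.44, -0.23 and -0.45. Cyp8b1, the sterol 12-alpha-hydroxylase of bile acid synthesis, had 1714 to 3854 counts in every CTD library and 4 to 81 in every HFC library. Cyp7a1, which encodes its rate-limiting enzyme, fell in all 4 settings, with log2 fold changes of -4.17 in CT males (adjusted p = 0.00114), -4.22 in KO males (0.00053), -3.91 in CT females (0.0123) and -5.16 in KO females (0.00165). Slc10a1, the bile acid uptake carrier NTCP, fell in males, by -1.17 in CT and -1.43 in KO (adjusted p = 0.000373 and 1.94e-05). Under library totals 4 genes of this list were lower and 1 higher in CT males, 8 and 1 in KO males, 4 and 0 in CT females and 6 and 1 in KO females.

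Of 11 genes tied to NR5A2, which share Cyp7a1 and Cyp8b1 with the list above, 3 fell and 5 rose in CT males, 3 fell and 4 rose in KO males, 2 fell and 2 rose in CT females and 3 fell and 3 rose in KO females. Those that rose were led by the sterol exporter genes Abcg5, up by 1.25 in CT males (adjusted p = 0.000287) and 1.36 in KO males (3.74e-05), and Abcg8, up by 1.04 and 1.26 (0.00411 and 0.000632). Of 9 C/EBP-dependent metabolic genes, 3, 6, 2 and 6 fell in CT males, KO males, CT females and KO females and 0 rose, with medians of -0.49, -0.62, -0.53 and -0.74. The gluconeogenic genes G6pc and Pck1 fell in KO males, with -1.47 and -1.05 (adjusted p = 0.0169 and 0.00175). Under library totals this list had 1, 4, 2 and 4 lower and 1, 0, 0 and 0 higher. Of 9 genes bound by FOXA proteins, which overlap the C/EBP list, 1, 4, 2 and 6 fell and 0 rose in the same order. Of 14 acute phase genes tied to C/EBP beta, 0 passed in CT males, 1 rose (Hpx, 0.65) and 1 fell (Crp, -0.36) in KO males, 0 passed in CT females and 1 fell (Itih3, -0.80) in KO females. Under library totals the FOXA list had 0, 3, 2 and 5 lower and 0 higher, the acute phase list 1, 2, 2 and 2 higher and 0 lower, and the NR5A2 list 6, 5, 7 and 5 higher and 3, 3, 2 and 3 lower, in CT males, KO males, CT females and KO females.

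**Figure D5:**
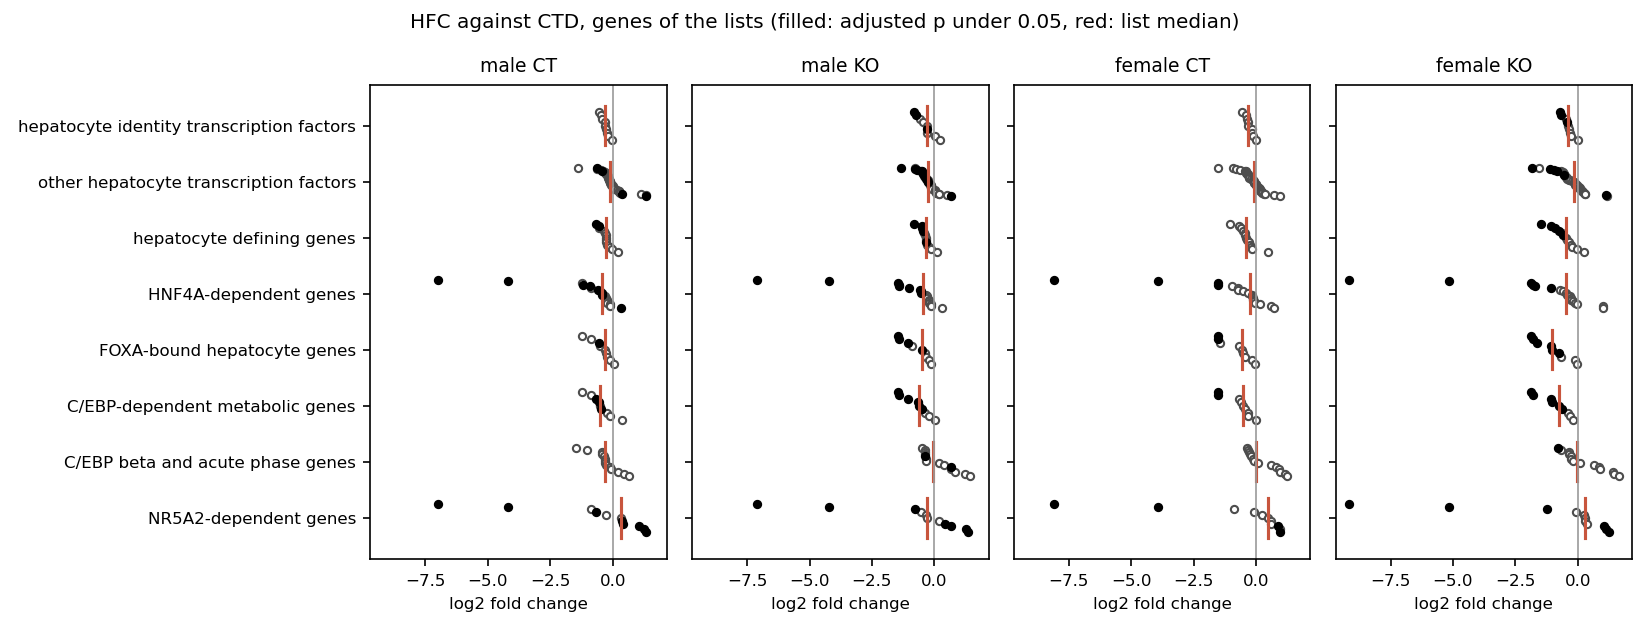
Log2 fold change, HFC against CTD, of every tested gene in the 9 factors and 7 related lists, filled where the adjusted p was under 0.05 (edgeR), with a red line at the list median. The 2 points farthest left in the HNF4A and NR5A2 lists are Cyp8b1 and Cyp7a1, which both lists hold.

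Markers of other cells moved with diet beside these values. Of all tested genes, 10.6% were called higher on HFC in CT males and 15.5% in KO males. In CT females 0.936% were, and in KO females 3.94%. Of 16 macrophage and monocyte markers, 14 rose in CT males and 16 in KO males, and their summed level was 424 to 632 CPM in CT males on CTD against 836 to 1351 on HFC, and 354 to 439 against 1055 to 1357 in KO males. In females 0 of 16 passed, and the sums overlapped in both genotypes, in KO at 384 to 974 CPM on CTD and 628 to 1923 on HFC. Markers of cholangiocytes, the cells of bile ducts, rose for 3 and 6 of 11 in CT and KO males and 1 and 1 of 10 in CT and KO females. Neutrophil markers rose for 4 of 7 in each male genotype, T and NK cell markers for 3 and 5 of 7, endothelial markers for 1 and 2 of 12, lymphatic endothelial markers for 0 and 2 of 5 with 1 fall in KO, and stellate cell markers for 0 and 1 of 10. In females these lists had 0 called, apart from 1 endothelial marker in KO. Of 13 hepatocyte defining genes, 2, 5, 0 and 5 fell in CT males, KO males, CT females and KO females, and 1, 1, 1 and 2 were lower under library totals, with 1, 0, 1 and 0 higher. Their summed level was 85626 to 116490 CPM in CT males on CTD and 79545 to 98576 on HFC. In KO males it was 104366 to 125368 against 82703 to 96917. In CT females it was 182771 to 193247 against 110555 to 161832, and in KO females 170210 to 199137 against 113882 to 129141. With TMM factors the diets overlapped in CT males only. Alb makes up much of each sum, with means of 71650 CPM on CTD and 55263 on HFC in KO males. Before scaling, Alb counts in KO males overlapped between diets, at 1277773 to 1688106 on CTD and 1218538 to 1544825 on HFC. Those in CT males overlapped as well, and those in females did not in either genotype. The part of these shifts in the factors' values was not tested.

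Across livers, the pairs of factors differed in how far they varied together. Over 16 males Nr5a2 and Prox1 had a Pearson correlation of 0.83, and 0.67 after group means were removed, and over 12 females 0.81 and 0.71. In females Cebpa, Cebpb, Nr5a2, Prox1 and Onecut2 all correlated pairwise, from 0.72 for Cebpb and Prox1 to 0.86 for Cebpb and Onecut2, and these 2 pairs had 0.08 and 0.60 after group means were removed. Over males Cebpb and Onecut2 correlated at 0.30. Foxa1 and Foxa2 correlated at 0.70 in males and 0.10 in females. Foxa3 and Prox1, whose diet differences were below 0 in both male genotypes, correlated at 0.22 in males, and at -0.51 within groups. Libraries of a group share genotype and diet, and all libraries of a sex share a scaling, so these are descriptions with no test.

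By the same measure over 16 males, the tested gene most like each factor was Pim3 for Cebpb (0.95 in males, 0.79 in females), Txlng for Nr5a2 (0.94 and 0.10), Rbpms2 for Cebpa (0.93 and 0.91), Rnf169 for Foxa3 (0.92 and 0.47), Gm15746 for Foxa2 (0.90 and 0.06), Zbtb20 for Prox1 (0.89 and -0.12), Dhx9 for Onecut2 (0.89 and -0.07), Hhex for Foxa1 (0.87 and 0.51) and Tfr2 for Hnf4a (0.87 and 0.71). Each was the highest among 14078 tested genes in males. Of these 9 genes, Rbpms2 and Pim3 had the highest values in females.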

How the data were processed

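RNA of whole liver was sequenced by BGI with DNBSEQ libraries, per the labels. For each sex the authors deposited raw counts, and CPM made from them. The deposited CPM equal each count over its library total within 1e-04 CPM for 100% of values. The submitters' processing notes name FastQC, edgeR and GRCm38 (mm10). Aligner, counting program, annotation and strand setting: not given in the sources used here.

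The members and gene lists were chosen with earlier results of these data known. Counts of each sex were fitted separately in edgeR 4.0.16 (R 4.3.3) after filterByExpr and TMM scaling, by group means with robust quasi-likelihood dispersions. The filter left 14078 genes in 16 male and 13999 in 12 female libraries (14685 in the joint fit for the sex difference). Biological coefficients of variation were 0.161 (males) and 0.199 (females). Benjamini-Hochberg adjustment ran over every tested gene of a contrast. Calls were made at an adjusted p under 0.05. Values printed as CPM are TMM-normalised unless named otherwise. SE is the size of the log2 fold change over the square root of F, an approximation, and 95% intervals use it. Levels per kb divide by the exon union of GENCODE M21. Likeness is Pearson's r of log2 CPM (prior count 2). Steps were tested on simulated data. All 9 factors are named, and list genes by adjusted p. The list genes shown with values, and the averaged diet test, were chosen after values were seen. Alternatives were library totals, RLE factors, no filter, DESeq2 1.42.0, limma 3.58.1 on log2 of the deposited CPM + 0.5, all 28 animals in 1 fit, and each animal left out. Same-group libraries differed by more than sampling noise (chi-square over its degrees of freedom no lower than 12.7 in 24 male and 21.0 in 12 female pairs). Each label's animal number marks a separate mouse. Precision is limited by the number of animals: the least count of any factor was 215. Promoters are RefSeq sequences matched by symbol, taken for 8 of the 9 factors and used here as printed. Where a factor has several entries, the one nearest the GENCODE 5′ end was used. The promoter of Onecut2 was not examined. Of transcripts annotated over the factors, only Tmem189 over Cebpb is in the tables by its GENCODE name. 0 columns were left unused.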

Additional observations from a re-analysis of the deposited data

Results flagged for a closer look

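Foxa1 in CT male 301 on CTD was 36.6 CPM, while the other 3 animals of its group had 22.8 to 24.3. Its gap to the nearest animal was 0.889 of the whole range of the group, above the critical value of 0.829 for 4 animals. It is 1 of 36 groups of 4 examined (9 factors in 4 male groups), and chance flags about 1 in 20. The same animal had the highest Foxa3 (45.9 CPM) and Onecut2 (180 CPM) of all males and the lowest Prox1 of its group (122 CPM).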

How the results depend on the processing

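No called value changed its direction under any setting. Genes called on HFC numbered 2820 in CT males, and 4535 with library totals, 4639 with limma, 3201 by DESeq2, 1845 with all 28 animals in 1 fit and 5741 averaged over CT and KO. For CT females these were 307, and 1827, 1860, 1421 and 2707, with 919 by DESeq2. For KO females they were 1202, and 3737, 3361, 2590 and 2707, with 1879 by DESeq2. For KO males they were 4102, and 6092, 6044, 3386 and 5741, with 4324 by DESeq2. Leaving out 1 animal gave 1753 to 3374 in CT males, 3064 to 4321 in KO males, 72 to 756 in CT females and 566 to 2671 in KO females.

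Factors called in CT males were 0, and 1 by DESeq2, 1 with all animals and 6 averaged. In KO males they were 3, and 1 with library totals, 1 with limma, 2 with all animals, 5 by DESeq2 and 6 averaged. CT females had 0, and 2 by DESeq2 and 5 averaged. KO females had 3, and 0 with library totals, 0 with limma, 2 with all animals and 5 averaged. Without the low-count filter they had 2, beside 1084 genes called. Leaving out 1 animal gave 0 to 1 in CT males, 1 to 5 in KO males, 0 to 1 in CT females and 0 to 5 in KO females. Foxa3 in KO males passed whichever animal was left out. The Cebpb call there was lost without KO animal 303, 414 or 415 and the Nr5a2 call without 303, 414 or 540. All 3 calls in KO females were lost without KO animal 307, 309, 317, 412 or 419, and Prox1 alone was left without CT animal 510.

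KO against CT gave 0 genes, and by DESeq2 11 in males on CTD, 3 in males on HFC, 8 for the male interaction and 1 in females on CTD, and 1 in males on CTD with all animals in 1 fit. Leaving out 1 animal gave 0 to 9 in females on HFC and 0 to 1 for the female interaction. The sex difference called 119 genes, 274 by DESeq2 and 58 to 158 with 1 animal left out. The cause of these shifts was not tested. No paired analysis was possible because every animal has its own number and none is shared between groups.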
